A study of Mus musculus with 18 samples.

Results

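The 10 genes described here encode ligands that tumour and host cells present to T cells, natural killer cells and macrophages: Cd274, Pdcd1lg2, Cd80, Cd86, Cd276, Vsir, Lgals9, Cd47, Cd200 and Tnfsf9. They were taken by name from a table of 48795 mouse genes, and all 10 were found. The question put to them was which are transcribed in the tumour cells and which in the other cells of the tumour. RNA was sequenced from GL261, a mouse glioma cell line marked with green fluorescent protein (GFP), and from tumours that it formed in mice. There were 6 groups of 3 libraries. Tumour cells (GFP+) were sorted from collagenase-digested tumours of symptomatic Pfp/Rag2-/- hosts and of C57BL/6 wild-type (WT) hosts, and GFP- cells were sorted from WT hosts. Unsorted cells, which held both fractions, came from Pfp/Rag2-/- hosts and from WT hosts, and the last group was the cultured GFP+ line that had been injected, kept in medium with serum. All tumours came from the same line, and no GFP- library of a Pfp/Rag2-/- host was analysed here. The Pfp/Rag2-/- host lacks perforin and, through Rag2, mature T and B cells, but it retains natural killer cells and macrophages. The labels give no age, do not say whether the line was 1 clone, and name 6 mice per host without saying whether a library was 1 mouse or a pool, so the p-values reflect only how far libraries of a group lay apart.

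The ligands belong to several families. In the B7 family, PD-L1 (Cd274) and PD-L2 (Pdcd1lg2) bind PD-1 on T cells and dampen them, CD80 and CD86 bind the activating receptor CD28 and the inhibitory receptor CTLA-4, and B7-H3 (Cd276) and VISTA (Vsir) are regarded mainly as inhibitory. CD47 signals to SIRPα on macrophages and limits phagocytosis, CD200 acts on CD200R1 of myeloid cells, and galectin-9 (Lgals9) is a lectin that binds TIM-3 (Havcr2) among others. 4-1BBL (Tnfsf9), a member of the tumour necrosis factor family, co-stimulates T cells through 4-1BB (Tnfrsf9). PD-L1 is known to be induced by interferon-γ through JAK1, JAK2 and IRF1, and CMTM6 and CMTM4 hold the protein at the cell surface.

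In GRCm38 coordinates (GENCODE vM21 annotation), Cd274 (ENSMUSG00000016496) spans 29367455 to 29388095 on the plus strand of chromosome 19. Pdcd1lg2 (ENSMUSG00000016498) follows it on the same strand at 29410919 to 29471161, 22824 bases downstream with no annotated gene between them. Chromosome 16 carries Cd86 (36603869 to 36666081, minus strand), Cd80 (38455561 to 38496335, plus), Cd200 (45382135 to 45409053, minus) and Cd47 (49800533 to 49915010, plus). The others are Cd276 on chromosome 9 (58524298 to 58555437, minus), Vsir on chromosome 10 (60346851 to 60372684, plus), Lgals9 on chromosome 11 (78962974 to 78984946, minus) and Tnfsf9 on chromosome 17 (57105325 to 57107757, plus). Exons of Cd274, Cd276 and Tnfsf9 overlap an annotated gene on the opposite strand, whose reads would be shared if the counting ignored strand, which is not given in the sources used here. For Cd276 that gene, Gm10657, had at most 23 reads in a library, for Tnfsf9 (Gm11110) at most 61, and for Cd274 (AC119228.1) it was not analysed here.

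The adjoining genes Cd274 and Pdcd1lg2 differed most between hosts below. Lgals9 had a small difference of the other sign. Its call in GFP+ cells was lost under 9 of 18 alternatives, and it was not called in the main fit of unsorted tumours. The promoter windows of these genes are printed for comparison. They are RefSeq windows (GRCm38.p6) from 250 bases before to 50 bases after the start site, 5′ to 3′ on the gene's strand, at chr19:29367188-29367487 (plus strand), chr19:29410669-29410968 (plus strand) and chr11:78984875-78985174 (minus strand). Capitals mark matches to the interferon-stimulated response element, searched on both strands as GAAA, any 2 bases and GAAA, which reads TTTC, any 2 bases and TTTC on the other strand.
Cd274: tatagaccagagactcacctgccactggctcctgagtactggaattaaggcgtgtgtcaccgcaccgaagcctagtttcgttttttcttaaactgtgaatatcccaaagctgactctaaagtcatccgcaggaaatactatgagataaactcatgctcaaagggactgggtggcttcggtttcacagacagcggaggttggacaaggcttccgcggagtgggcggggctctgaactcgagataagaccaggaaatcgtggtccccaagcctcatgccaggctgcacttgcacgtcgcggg
Pdcd1lg2: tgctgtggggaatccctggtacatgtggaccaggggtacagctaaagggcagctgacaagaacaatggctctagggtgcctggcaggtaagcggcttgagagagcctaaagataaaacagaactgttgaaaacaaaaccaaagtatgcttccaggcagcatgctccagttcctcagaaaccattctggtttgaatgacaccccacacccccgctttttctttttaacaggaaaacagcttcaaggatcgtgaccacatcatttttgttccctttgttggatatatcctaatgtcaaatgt
Lgals9: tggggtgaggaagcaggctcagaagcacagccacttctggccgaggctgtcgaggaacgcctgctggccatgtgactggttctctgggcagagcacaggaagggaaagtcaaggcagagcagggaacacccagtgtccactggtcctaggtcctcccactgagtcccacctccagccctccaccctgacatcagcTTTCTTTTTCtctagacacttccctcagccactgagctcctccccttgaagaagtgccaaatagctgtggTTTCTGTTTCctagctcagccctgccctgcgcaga
The Lgals9 window held 2 matches, starting at position -55 and at position 16 with the start site counted as 1. The 9 windows at hand covered 8 of the 10 members (Cd47 has 2; none was used for Cd86 and Tnfsf9), and 1 of the 9 held a match. Of all 32851 windows of this length, 3.44% did. The NF-κB motif GGGA, any base and TTTCC (0.411% of all windows) had no match in the members' 9 windows. A match, or its lack, concerns these letters in this window and is no evidence on binding.

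The deposited values are normalized counts, read counts divided by 1 size factor per library, and whole reads could be recovered from them (19172814 to 21141662 per library). Size factors lay between 0.649 and 0.761 for GFP- cells and between 1.04 and 1.15 for the other groups, so 1 read weighs more in GFP- cells. Of the genes deleted in the Pfp/Rag2-/- host, Prf1, which encodes perforin, gave 8, 15 and 18 reads in Pfp/Rag2-/- unsorted cells, against 118, 110 and 160 in WT unsorted cells. In sorted cells it gave 128, 6 and 1 reads in the Pfp/Rag2-/- GFP+ libraries, against 123, 5 and 11 in the WT GFP+ libraries. Rag2 had 0 reads in all 9 libraries of WT hosts and up to 7 in Pfp/Rag2-/- hosts, too few to check the labels, and these counts are over the whole gene, deleted or not. Of the T cell list of 14 markers, 10 of 12 tested were lower in unsorted Pfp/Rag2-/- than in unsorted WT tumours. Of 6 glioma genes, 4 were higher and 2 lower in WT GFP+ than in WT GFP- cells, where 33.7% of all genes were higher and 42.7% lower. The 6 genes summed to 85531 to 113615 in WT GFP+ and 41998 to 71392 in WT GFP- cells. Nes, a progenitor filament gene and 1 of the 4 higher, averaged 5807 ± 225 in WT GFP+ cells and 542.7 ± 451.5 in WT GFP- cells (SD, n = 3). The libraries numbered 1 of both GFP+ groups held more RNA of leukocyte markers than libraries 2 and 3. In Pfp/Rag2-/- GFP+ cells the median marker of the macrophage and microglia list (22 of 22 genes) was at 2.43%, 0.454% and 0.441% of its mean in WT GFP- cells. In WT GFP+ cells it was at 2.53%, 0.687% and 1.48%. The list of 6 natural killer (NK) cell markers stood at 17.5% in Pfp/Rag2-/- GFP+ library 1 and at 5.06% in WT GFP+ library 1.

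**Figure D1:**
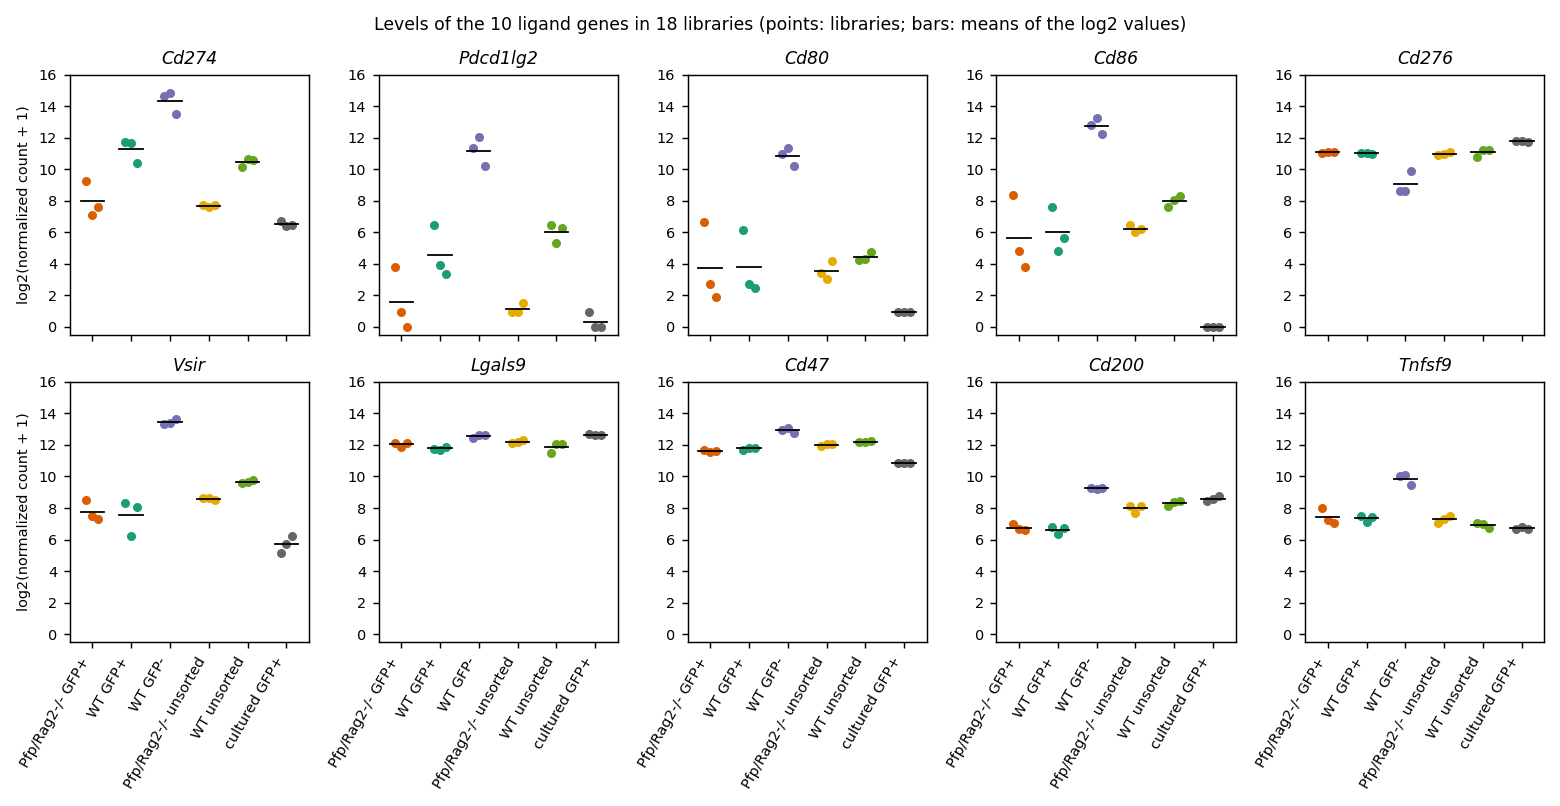
Levels of the 10 ligand genes, log2(normalized count + 1) on the vertical axis, in the 6 groups of 3 libraries. Points are libraries and bars are means of the log2 values. Cd276 was lowest in GFP- cells, and the other 9 were higher in all GFP- than in all WT GFP+ libraries.

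The ligands differed in level between the sorted fractions of WT tumours. A higher level in 1 fraction does not exclude transcription in the other. Only Cd276 was higher in WT GFP+ than in WT GFP- cells, and the other 9 were higher in the GFP- cells, by margins that ran from 1.71-fold for Lgals9 to 134-fold for Cd80. Differences were tested with limma on log2(normalized count + 1), two-sided, using the 6 libraries compared and every gene that reached 10 normalized counts in 3 of them. Calls were made where p, adjusted over those genes by the Benjamini-Hochberg method, was under 0.05, and fold changes on this scale understate those of low genes. All 10 members were called, 1 higher and 9 lower, and in each the groups did not overlap. Of all 16083 genes tested, 76.4% were called (33.7% higher, 42.7% lower) and 81.4% did not overlap (36.4% higher, 45.0% lower), so a call is common here. The members' median log2 difference was -2.84, against -0.19 for all genes. Higher genes were 44.1% of all calls, but 56.6% with quantile normalization and 62.8% with recovered reads scaled to equal library totals.

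Cd276, the ligand B7-H3, had 2120 normalized counts in WT GFP+ library 1, 2044 in library 2 and 1985 in library 3, against 394, 390 and 941 in the 3 WT GFP- libraries. The GFP+ libraries lay close together and GFP- library 3 stood above its group. The log2 difference was 1.96 (SE 0.34, adjusted p = 0.00189). Of the 6 glioma genes, 3 had their highest and 3 their lowest level of the GFP- libraries in library 3, and the list summed to 51389, 71392 and 41998 in libraries 1, 2 and 3. Sox2, a stem cell transcription factor named after its values were seen, had 119, 142 and 810. The pericyte and fibroblast list summed to 1360, 587 and 3779 in the same libraries, and the part of either in the Cd276 level was not tested.

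Cd86 and Cd80, the ligands of CD28 and CTLA-4, and Vsir lay in the range of the leukocyte genes. Cd86 had 197, 27.6 and 48.8 in WT GFP+ cells, against 7050, 9530 and 4700 in WT GFP- cells. The log2 difference was -6.70 (SE 0.70, adjusted p = 0.000234), and Cd80 (-7.06, SE 0.97) and Vsir (-5.93, SE 0.52) were of like size. Without WT GFP+ library 1, Cd86 was at -7.50 and Cd80 at -8.23. Without WT GFP+ library 2, Cd86 was at -6.10 and Vsir at -5.29, and without WT GFP+ library 3 Cd80 was at -6.41. Set against their means in GFP- cells, Cd86 stood at 2.78%, 0.388% and 0.688% in WT GFP+ libraries 1, 2 and 3, Cd80 at 3.56%, 0.295% and 0.238%, and Vsir at 0.658% to 2.74%. The macrophage list (0.687% to 2.53%), the dendritic cell list (0.563% to 3.56%, 7 of 8 genes) and the T cell list (0.245% to 2.92%, 14 of 14) spanned similar values. Their part in these ligands' GFP+ levels was not tested. Sirpa, the macrophage receptor of CD47, had 646, 136 and 239 in these GFP+ libraries and 22012, 28147 and 18013 in the GFP- libraries.

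Cd274 and Pdcd1lg2, the PD-1 ligands, did not share a place in this order. Cd274 had 3420, 3239 and 1327 in WT GFP+ cells, against 25241, 29690 and 11407 in WT GFP- cells, a log2 difference of -3.06 (SE 0.49, adjusted p = 0.0013). Its GFP+ level was 15.5%, 14.6% and 6.00% of the GFP- mean in libraries 1, 2 and 3, above the median of each leukocyte list in every one of these libraries. The endothelial list was at 4.37%, 7.60% and 27.2% and the pericyte and fibroblast list at 3.53%, 3.24% and 15.5% in the same libraries, so both were above Cd274 in library 3, and their part in its level was not tested. Pdcd1lg2 had 87.2, 14.3 and 9.21 in WT GFP+ cells, against 2547, 4221 and 1160 in WT GFP- cells (log2 -6.60, SE 0.87, adjusted p = 0.000596). Its percentages, 3.30%, 0.539% and 0.348%, lay in the range of the leukocyte lists. The Pdcd1lg2 difference was -7.54 without WT GFP+ library 1 and -5.98 without WT GFP+ library 3. WT library 3 had the lowest Cd274 level in both fractions.

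Lgals9, Cd47, Cd200 and Tnfsf9 were present in both fractions. Lgals9, galectin-9, had 3476, 3329 and 3716 in WT GFP+ cells, against 5459, 6302 and 6270 in WT GFP- cells (log2 -0.78, SE 0.09, adjusted p = 0.000373). Cd47 averaged 3501 ± 146 in WT GFP+ cells and 7795 ± 896 in WT GFP- cells (log2 -1.15, SE 0.10, adjusted p = 0.000138). Cd200 averaged 98.3 ± 14.5 in WT GFP+ and 605.8 ± 20.9 in WT GFP- cells, and Tnfsf9 164.6 ± 21.9 in WT GFP+ and 949.6 ± 212.5 in WT GFP- cells (SD, n = 3). The 4 GFP+ levels were 58.3%, 44.9%, 16.2% and 17.3% of the GFP- means for Lgals9, Cd47, Cd200 and Tnfsf9. The difference in Lgals9 depended on the scaling, and the median of all genes moved from -0.19 to 0.22 with quantile normalization and to 0.46 with reads scaled to equal library totals. Lgals9 was then at -0.18 (adjusted p = 0.212) and -0.12 (adjusted p = 0.366) and was not called, though still below the median of all genes. The other 9 members were called under all 17 alternatives of this comparison, but their size moved too. Cd47 ran from -1.23 to -0.49, Cd200 from -2.70 to -1.97 and Tnfsf9 from -2.70 to -1.85. The percentages of the GFP- means rest on the deposited scaling.

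**Figure D2:**
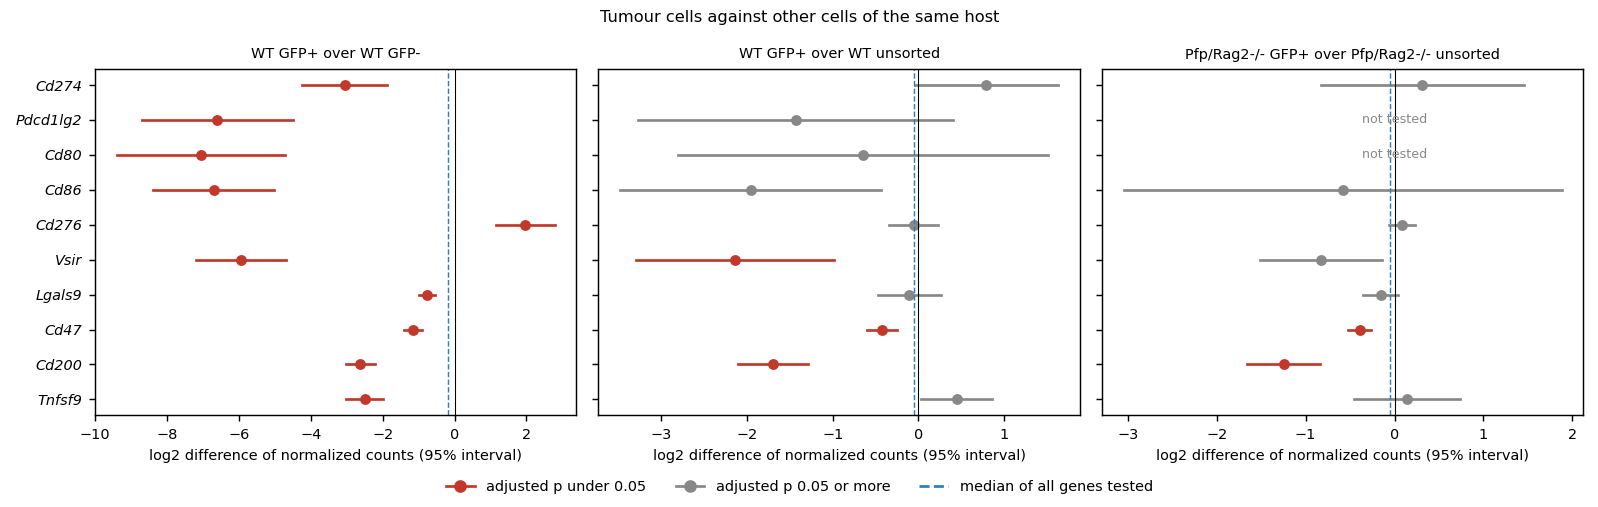
Log2 differences of the 10 ligand genes with 95% intervals, between WT GFP+ and GFP- cells on the left, and between GFP+ and unsorted cells of WT hosts and of Pfp/Rag2-/- hosts in the middle and on the right. Red marks adjusted p under 0.05 and the dashed line is the median of all genes tested. On the left, Cd276 (1.96) is the only member to the right of 0.

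Levels of different genes can be set beside each other per kilobase of exon. In WT GFP+ cells Lgals9 led with 1641 ± 91.3 normalized counts per kilobase, followed by Cd274 with 734.9 ± 320.2, Cd276 with 560.3 ± 18.6 and Cd47 with 557.9 ± 23.3, of which the last 3 overlapped in spread. In WT GFP- cells Cd274 led with 6105 ± 2632, Lgals9 had 2813 ± 224 and Vsir 2276 ± 289, while Cd276 was last with 157.2 ± 86.7 (SD, n = 3). In cultured cells Lgals9 (2992 ± 68.5) and Cd276 (956.7 ± 19.2) led, and Cd80, Pdcd1lg2 and Cd86 were below 1 per kilobase.

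Sorted tumour cells were next set beside unsorted cells of the same host, in which both fractions are mixed. In WT hosts, 3 of 10 members were lower in GFP+ than in unsorted cells and 0 were higher, where 16.8% of all genes were called (6.46% higher, 10.3% lower). These were Vsir (219 ± 126 in GFP+ and 819 ± 52.0 in unsorted cells, log2 -2.14, SE 0.49, adjusted p = 0.0289), Cd47 (log2 -0.42, SE 0.07, adjusted p = 0.0132) and Cd200 (log2 -1.69, SE 0.17, adjusted p = 0.0061). In Pfp/Rag2-/- hosts, 2 of 8 tested were lower, where 30.2% of genes were called (11.1% higher, 19.1% lower): Cd47 at log2 -0.39 (SE 0.06, adjusted p = 0.00349) and Cd200 at -1.25 (SE 0.17, adjusted p = 0.00333). Pdcd1lg2 and Cd80 were too low to be tested there. Higher genes were 38.6% of all calls in WT hosts (51.5% with quantile normalization, 52.2% with TMM factors) and 36.7% in Pfp/Rag2-/- hosts (50.8% and 48.2%). Without Pfp/Rag2-/- GFP+ library 1, Cd86 (log2 -1.93, adjusted p = 0.00571) and Vsir (-1.20, adjusted p = 0.000659) were lower as well, and the WT count was 6 without WT GFP+ library 1 and 1 without WT unsorted library 3. In WT hosts, Vsir was not called without WT unsorted library 2 (adjusted p = 0.0682) or 3 (0.103), and it was at -1.49 without WT GFP+ library 2. Cd47 was not called without WT GFP+ library 2 (0.0579) or WT unsorted library 3 (0.0732). The macrophage list was at 0.687% to 2.53% of GFP- in WT GFP+ and at 6.21% to 7.17% in WT unsorted cells, and its part in these differences was not tested.

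Cd274 gave a positive difference in WT hosts that missed the threshold. It averaged 2662 ± 1160 in WT GFP+ and 1429 ± 263 in WT unsorted cells (SD, n = 3), a log2 difference of 0.79 (95% interval -0.04 to 1.63, adjusted p = 0.164), with WT GFP+ library 3 inside the range of the unsorted libraries. Without that library the difference was 1.24 (adjusted p = 0.00877), and with DESeq2 on all libraries it was 0.94 (adjusted p = 0.0243). Over the other alternatives the adjusted p was 0.107 to 0.409. Of the macrophage list, 18 of 22 genes were lower in the same comparison and 0 were higher. WT unsorted cells held both fractions, yet their Cd274 mean was below those of WT GFP+ and of WT GFP- cells (22113 ± 9534). That also held for Cd80 and Tnfsf9, while the Cd276 mean was above both. Cd274 in WT unsorted cells was at 5.11% to 7.33% of its GFP- mean, and the macrophage list at 6.21% to 7.17%. The reason was not tested. Cd276 was at 2050 ± 68.1 in WT GFP+ and 2148 ± 331 in WT unsorted cells, with a difference of -0.06 (interval -0.34 to 0.23). Of the others in WT hosts, Pdcd1lg2 was at -1.43, Cd80 at -0.64, Cd86 at -1.96, Lgals9 at -0.11 and Tnfsf9 at 0.44, with adjusted p from 0.0789 (Cd86) to 0.667 (Lgals9). In Pfp/Rag2-/- hosts, Cd274 was at 0.31, Cd86 at -0.58, Cd276 at 0.08, Vsir at -0.83, Lgals9 at -0.16 and Tnfsf9 at 0.14, with adjusted p from 0.0704 (Vsir) to 0.708 (Tnfsf9 and Cd86).

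**Figure D3:**
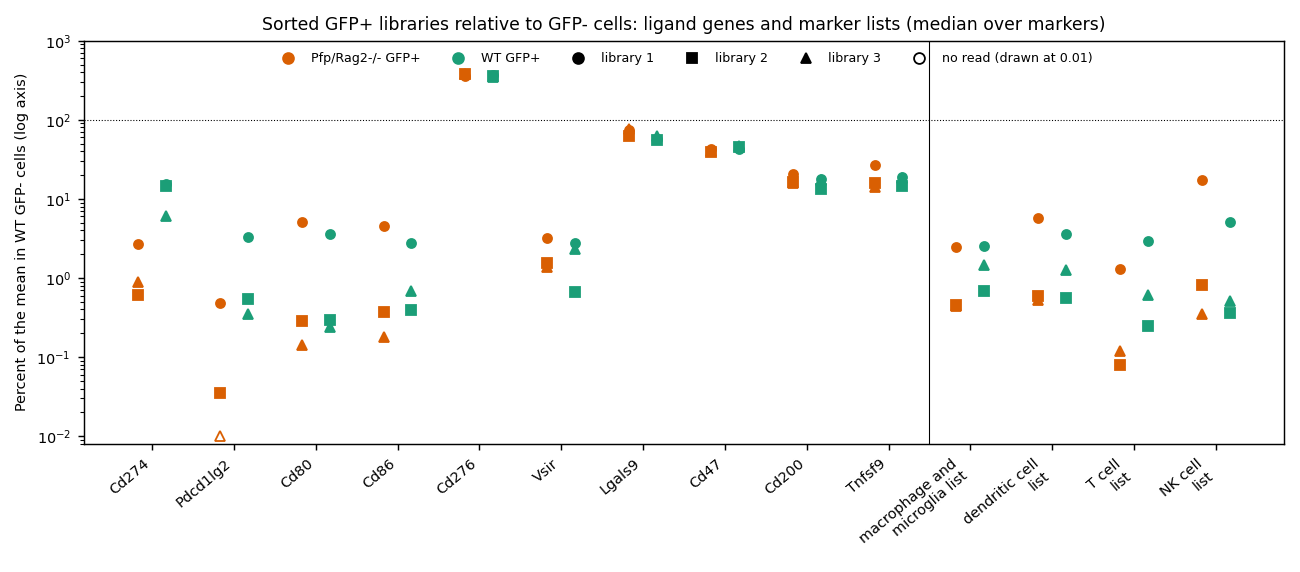
Level of each ligand gene in the sorted GFP+ libraries as a percentage of its mean in WT GFP- cells (log axis), beside the median percentage of 4 leukocyte marker lists. Orange is Pfp/Rag2-/- GFP+ and green WT GFP+, symbols are libraries 1 to 3, and the open symbol had no read. Cd274 in WT GFP+ cells lies at 6.00% to 15.5%, above the medians of all 4 lists in the same libraries. In library 3, single markers of each of these lists were above it. So were the medians of the endothelial list and of the pericyte and fibroblast list, which are not drawn.

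Between hosts, Cd274 had the larger difference of the 2 members called in sorted tumour cells. It had 596, 136 and 196 in Pfp/Rag2-/- GFP+ cells, against 3420, 3239 and 1327 in WT GFP+ cells. Every Pfp/Rag2-/- library was below every WT library. The log2 difference was -3.28 (SE 0.59, 9.70-fold lower, adjusted p = 0.00758), and it was called under all 18 alternatives, at -3.90 (without Pfp/Rag2-/- library 1) to -2.84. Lgals9 was the other called member, and it was higher: 4413, 3756 and 4553 in Pfp/Rag2-/- GFP+ cells, against 3476, 3329 and 3716 in WT GFP+ cells. The Lgals9 difference of 0.27 (SE 0.08, 1.21-fold, adjusted p = 0.0475) lost its call under 9 of 18 alternatives, with adjusted p up to 0.197, among them the fits without WT GFP+ library 1 (0.116) or 2 (0.143) and without Pfp/Rag2-/- library 1 (0.117) or 3 (0.147). Of 9 members tested, 1 was higher and 1 lower, where 30.4% of all genes were called, 15.0% higher and 15.3% lower, and their share is not above that background. The groups did not overlap in 3 of the 9, 1 higher (Lgals9) and 2 lower (Cd274 and Cd47), against 48.7% of all genes (25.3% higher, 23.4% lower). Higher genes were 49.5% of all calls, and 66.1% with reads scaled to equal library totals, which moved the median of all genes from 0.02 to 0.10.

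Cd274 in Pfp/Rag2-/- GFP+ cells was at 2.70%, 0.615% and 0.887% of its WT GFP- mean, in libraries whose macrophage list was at 2.43%, 0.454% and 0.441%. Both percentages refer to GFP- cells of WT hosts, not of Pfp/Rag2-/- hosts. In unsorted Pfp/Rag2-/- cells Cd274 was at 0.868% to 0.940% and the macrophage list at 1.85% to 2.20%. The part of other cells in the Cd274 level of Pfp/Rag2-/- GFP+ cells was not tested. The macrophage list had 1 of 22 genes lower and 0 higher between the hosts' GFP+ cells, and its percentages overlapped (0.441% to 2.43% in Pfp/Rag2-/- and 0.687% to 2.53% in WT). Without both libraries numbered 1, the Cd274 difference was -3.66 (adjusted p = 0.00332). In Pfp/Rag2-/- GFP+ cells, 5 of 6 pericyte and fibroblast genes tested were higher than in WT GFP+ cells. Of 9 endothelial genes 0 were called by limma, and that list was at 27.6% to 61.2% of GFP-, against 4.37% to 27.2% in WT GFP+ cells. Of 6 oligodendrocyte genes 3 were higher, and that list summed to 9444 to 11029 in Pfp/Rag2-/- and 4374 to 9930 in WT GFP+ cells. Of 5 glioma genes tested 1 was lower, and the glioma list summed to 66712 to 72680 in Pfp/Rag2-/- and 85531 to 113615 in WT GFP+ cells, without overlap. Their part in the ligand levels was not tested.

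The remaining members did not pass the test between GFP+ cells of the 2 hosts. Pdcd1lg2 had 12.8, 0.918 and 0 in Pfp/Rag2-/- GFP+ cells, against 87.2, 14.3 and 9.21 in WT GFP+ cells, and Pfp/Rag2-/- library 1, with 14 reads, lay inside the WT range. Its difference of -3.01 (SE 1.16, adjusted p = 0.0911) was called with the replicate number as a block (adjusted p = 0.00348), in a single fit of all 18 libraries (0.0272), without Pfp/Rag2-/- library 1 (-4.11, adjusted p = 0.0269) and without both libraries numbered 1 (-3.17, adjusted p = 0.0328). Over all its alternatives the adjusted p ran up to 0.246, without WT library 1. Cd47 was lower in each Pfp/Rag2-/- library (3173 ± 139 against 3501 ± 146 in WT), a difference of -0.14 (interval -0.27 to -0.01, adjusted p = 0.0891). Cd276 differed by 0.07 (interval -0.05 to 0.18), with 2147 ± 53.2 in Pfp/Rag2-/- and 2050 ± 68.1 in WT GFP+ cells, and was called with quantile normalization (0.15, adjusted p = 0.0470) and with reads scaled to equal library totals (0.15, adjusted p = 0.0414). For Cd86 (-0.39, interval -3.29 to 2.504), Vsir (0.23, -1.12 to 1.58), Cd200 (0.12, -0.31 to 0.54) and Tnfsf9 (0.07, -0.53 to 0.67), the spread between libraries was wide against the difference. Cd80 was not tested, with 99.5 normalized counts in Pfp/Rag2-/- library 1, 69.0 in WT library 1 and under 6 in the other 4 libraries.

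In unsorted tumours, 4 of 10 members were lower in Pfp/Rag2-/- than in WT hosts and 0 were higher, where 29.9% of all genes were called (14.8% higher, 15.1% lower). The groups did not overlap in 8 of the 10, 2 higher and 6 lower, against 48.4% of all genes (25.3% higher, 23.1% lower). Cd274 had 208, 192 and 207 in Pfp/Rag2-/- tumours, against 1130, 1621 and 1537 in WT tumours (log2 -2.80, SE 0.15, adjusted p = 7.06e-05). Pdcd1lg2 had 1, 1 and 2 reads in Pfp/Rag2-/- tumours, against 95, 43 and 87 reads in WT tumours (log2 -4.90, SE 0.41, adjusted p = 0.000369). It reached the filter of 10 normalized counts in 3 libraries only through the WT libraries. Its sign and its lack of overlap were therefore set by the filter, in the counts above as well. Cd86 averaged 74.5 ± 11.6 in Pfp/Rag2-/- and 258.2 ± 56.8 in WT tumours (log2 -1.77, SE 0.21, adjusted p = 0.00151). Vsir averaged 385.1 ± 25.1 in Pfp/Rag2-/- and 819.3 ± 52.0 in WT tumours (log2 -1.09, SE 0.09, adjusted p = 0.00044). The hosts did not overlap in any of the 4, and Cd86 and Vsir lost their call in a single fit of all 18 libraries (adjusted p = 0.141 and 0.0726). In the same comparison 21 of 22 macrophage genes were lower, with summed levels of 14895 to 16704 in Pfp/Rag2-/- and 46831 to 60033 in WT tumours, and 10 of 12 T cell genes were lower. Their part in the 4 ligands was not tested, and in mixed cells fewer cells of a type and less RNA per cell cannot be told apart.

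The other 6 members did not pass the test in unsorted tumours. Cd47 was at 4170 ± 222 in Pfp/Rag2-/- and 4696 ± 106 in WT tumours (log2 -0.17, interval -0.34 to -0.0015, adjusted p = 0.115). Cd80 differed by -0.88 (adjusted p = 0.119) and Cd200 by -0.33 (0.172). Lgals9 differed by 0.32 (adjusted p = 0.163) and Tnfsf9 by 0.37 (0.144), and all 3 Pfp/Rag2-/- libraries were above all 3 WT libraries in both. Cd276 differed by -0.07 (interval -0.37 to 0.23).

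**Figure D4:**
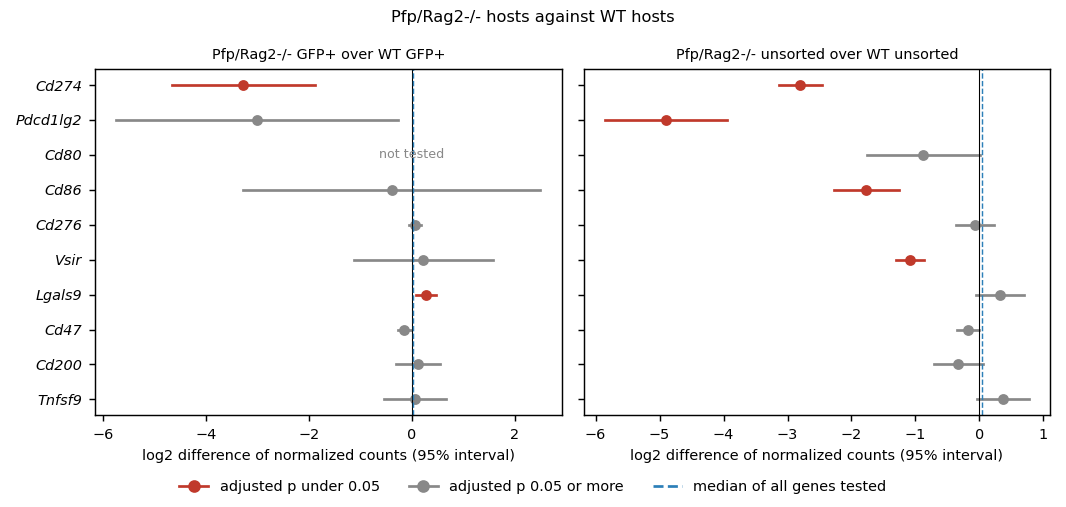
Log2 differences of the 10 ligand genes between Pfp/Rag2-/- and WT hosts with 95% intervals, in sorted GFP+ cells on the left and in unsorted cells on the right. Red marks adjusted p under 0.05. Cd274 lies at -3.28 on the left and -2.80 on the right.

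Whether the host difference differed between sorted and unsorted cells was tested as an interaction over 12 libraries, in which 0.934% of all genes were called (0.223% higher, 0.712% lower). Higher genes were 23.8% of these calls, 41.9% with quantile normalization and 46.2% with reads scaled to equal library totals. None of the 10 members was called by limma, edgeR or DESeq2, and 0 had an unadjusted limma p under 0.05. For Cd274 the host difference was -0.48 further in GFP+ cells (SE 0.67, interval -1.96 to 0.99, adjusted p = 0.731). For Vsir it was 1.31 (SE 0.64, interval -0.09 to 2.72, adjusted p = 0.281), so the call in unsorted cells alone does not show that Vsir responded differently there.

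Cultured GL261 cells gave the levels without host cells. The macrophage list was near 0 in them (its median marker at most at 0.00138% of its WT GFP- mean, with 10 or 11 of 22 genes without a read), and so were several ligands: Cd86 had 0 reads in all 3 libraries, Pdcd1lg2 1, 0 and 0, and Cd80 1 in each. The means of Cd276 and Lgals9 were higher than in any other group, with 3499 ± 70.2 and 6394 ± 146 normalized counts (SD, n = 3), and the Lgals9 libraries overlapped those of WT GFP- cells. Cd274 had 105, 83.9 and 85.9, and Vsir 34.0, 50.9 and 74.4.

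Against culture, tumour cells of either host had the same signs in the 8 members tested, and both comparisons share the cultured libraries. In Pfp/Rag2-/- GFP+ cells 5 members were higher and 3 lower, where 72.2% of genes were called (35.1% higher, 37.1% lower). In WT GFP+ cells 5 were higher and 3 lower, where 65.6% were called (30.3% higher, 35.3% lower). Cd86, without a read in culture, reached the filter only through the GFP+ libraries, so its sign in both comparisons was set by the filter. Higher genes were 48.6% of the calls for Pfp/Rag2-/- GFP+ cells, and 62.4% with reads scaled to equal library totals, which moved the median of all genes from -0.01 to 0.16. Cd274 was higher by 1.46 in Pfp/Rag2-/- (SE 0.45, adjusted p = 0.0168) and by 4.73 in WT GFP+ cells (SE 0.32, adjusted p = 4.58e-06). Pfp/Rag2-/- GFP+ library 1, with 596 normalized counts, was the farthest from culture, and without it the difference was 0.84 (adjusted p = 0.00373). The call was lost with robust eBayes (adjusted p = 0.083) and without cultured library 2 (0.0561) or 3 (0.0534). Cd274 in Pfp/Rag2-/- GFP+ libraries 1, 2 and 3 was at 2.70%, 0.615% and 0.887% of its WT GFP- mean. The macrophage list was at 2.43%, 0.454% and 0.441% there. The part of other cells in the Cd274 differences from culture was not tested.

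Cd276 was lower than in culture in Pfp/Rag2-/- GFP+ cells (log2 -0.70, SE 0.04), and so was Lgals9 (log2 -0.60, SE 0.07). In WT GFP+ cells the differences were -0.77 (SE 0.05) for Cd276 and -0.87 (SE 0.05) for Lgals9. Cd200 was lower as well, at -1.85 in Pfp/Rag2-/- and -1.97 in WT GFP+ cells, and it had 95.8 to 125 normalized counts in Pfp/Rag2-/- and 81.7 to 108 in WT GFP+ cells, against 350 to 431 in culture. Cd47, the signal to macrophages, was higher at 0.78 (SE 0.04) in Pfp/Rag2-/- and 0.92 (SE 0.05) in WT GFP+ cells, and Tnfsf9 at 0.72 in Pfp/Rag2-/- and 0.66 in WT GFP+ cells. The adjusted p of these 5 genes was at most 0.0162, and Tnfsf9 in Pfp/Rag2-/- cells lost its call with quantile normalization (0.39, adjusted p = 0.139) and without cultured library 1 (0.0547) or 3 (0.0516). Vsir was higher at 2.08 in Pfp/Rag2-/- and 1.85 in WT GFP+ cells (adjusted p = 0.0576 in WT without cultured library 1), and Cd86 had at least 42.7-fold more in Pfp/Rag2-/- and at least 32.1-fold more in WT GFP+ cells than the 3 reads per library taken as the limit of a count of 0. Without library 1 of each group, which held more leukocyte RNA, these bounds for Cd86 were 6.96-fold in Pfp/Rag2-/- and 13.4-fold in WT GFP+ cells. Without WT GFP+ library 2, the WT difference of Vsir was 2.495. The macrophage list was higher than in culture in 21 of 22 genes in Pfp/Rag2-/- and in 22 of 22 in WT GFP+ cells. Its part in the members' differences from culture, those of Vsir and Cd86 among them, was not tested.

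**Figure D5:**
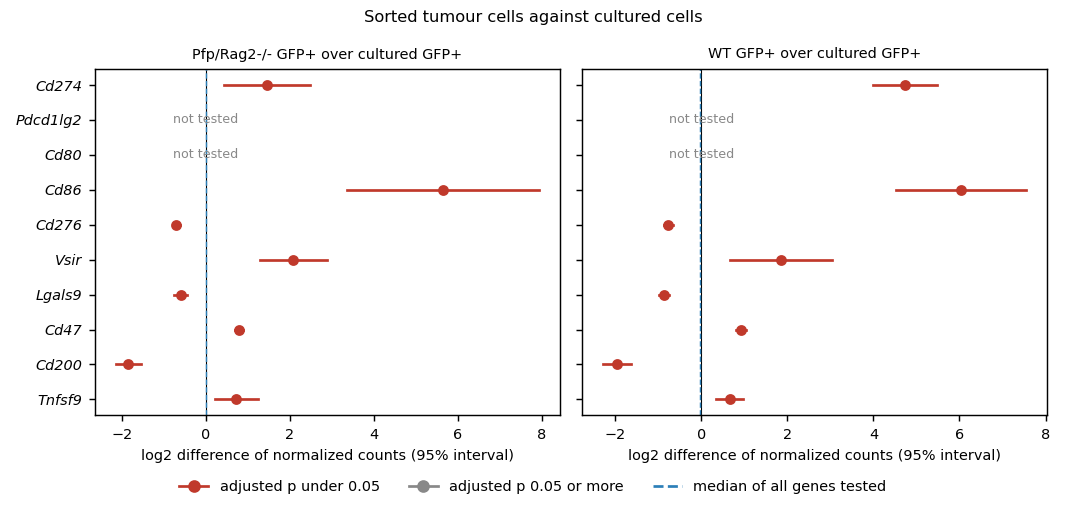
Log2 differences of the ligand genes between sorted GFP+ tumour cells and cultured GFP+ cells with 95% intervals, for Pfp/Rag2-/- hosts on the left and WT hosts on the right. Cd276, Lgals9 and Cd200 lie below 0 in both panels, and Pdcd1lg2 and Cd80 were too low to be tested.

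When the 6 groups were ordered by their mean level, some neighbours overlapped in 9 of the 10 members. Cd274 ran from WT GFP- (22113 ± 9534) through WT GFP+ (2662 ± 1160), WT unsorted (1429 ± 263), Pfp/Rag2-/- GFP+ (309.5 ± 250.2) and Pfp/Rag2-/- unsorted (202.4 ± 9.0) to cultured cells (91.5 ± 11.6). WT GFP+ overlapped WT unsorted and Pfp/Rag2-/- GFP+ overlapped Pfp/Rag2-/- unsorted, and the other neighbours did not. Cd47 was the member whose 6 groups did not overlap at any step, in the order WT GFP-, WT unsorted, Pfp/Rag2-/- unsorted, WT GFP+, Pfp/Rag2-/- GFP+ and cultured. Cd276 was highest in culture and lowest in GFP- cells, and its 4 groups between these overlapped with their neighbours.

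Genes whose log2 levels over the 18 libraries were most like each member were listed as a description (Pearson r, from the highest 2 of 12311 candidate genes, with 1 given for Cd276 and for Tnfsf9). The 18 libraries share 6 groups and are not independent points. For Cd274 they were Sp140 (0.985) and Trafd1 (0.982), for Cd86 Il10ra (0.997) and Csf2rb2 (0.997), and for Cd47 Apoe (0.986) and Lyz2 (0.984). For Cd276 Serpinh1 (0.994) is given, and for Lgals9 they were Pik3cb (0.956) and Sord (0.954). The others were Apol7c (0.988) and Fcrlb (0.986) for Pdcd1lg2, Neurl3 (0.989) and Stap1 (0.988) for Cd80, Otulinl (0.989) and Abi3 (0.988) for Vsir, Itpripl1 (0.941) and Slc35a5 (0.926) for Cd200, and Kdm6b (0.989) for Tnfsf9.

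The counter-receptors of these ligands lay with the GFP- cells. All 7 (Pdcd1, Cd28, Ctla4, Havcr2, Sirpa, Cd200r1 and Tnfrsf9) were lower in WT GFP+ than in WT GFP- cells (42.7% of all genes were), with a median log2 difference of -6.72 against -0.19 for all genes. Ctla4 was at -7.13, Pdcd1, which encodes PD-1, at -7.04, Havcr2 at -6.72, Sirpa at -6.33 and Cd200r1 at -5.75. All 7 were also lower in unsorted Pfp/Rag2-/- than in unsorted WT tumours (15.1% of all genes were), with a median of -2.15 against 0.05 for all genes, from Ctla4 at -5.43 (a mean of 0.302 in Pfp/Rag2-/- and 53.8 in WT tumours) and Cd200r1 at -3.21, through Pdcd1 at -2.15, to Havcr2 at -1.29 and Sirpa at -1.01. Between GFP+ cells of the hosts, 0 of the 4 tested were called by limma and 0 had an unadjusted p under 0.05, with Sirpa at -0.59 (adjusted p = 0.614) and Havcr2 at -0.07 (0.972). Pdcd1 averaged 6.39 in Pfp/Rag2-/- and 12.01 in WT GFP+ cells and Cd200r1 1.22 in Pfp/Rag2-/- and 10.7 in WT GFP+ cells, too low to be tested. In WT hosts, 2 of 7 were lower in GFP+ than in unsorted cells (10.3% of all genes were), Sirpa at -2.23 (adjusted p = 0.027) and Tnfrsf9 at -1.80 (adjusted p = 0.0434). Against culture, where Sirpa had 0, 1 and 0 reads, 2 of the 3 tested were higher in Pfp/Rag2-/- GFP+ cells (35.1% of all genes were) and 4 of 4 in WT GFP+ cells (30.3% were). Sirpa and Havcr2 in both hosts, and Ctla4 in WT hosts, reached the filter there only through the GFP+ libraries. Between unsorted tumours, Ctla4 and Cd28 reached it only through the WT libraries. The signs of these differences were therefore set by the filter, and the counts that include them are no result about these genes.

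Of 8 genes known to set the PD-L1 level, 2 were lower and 1 was higher in Pfp/Rag2-/- than in WT GFP+ cells, a share near the 30.4% called among all genes. Irf1, the interferon-induced transcription factor, had 1743, 1455 and 1470 in Pfp/Rag2-/- GFP+ cells, against 13655, 13213 and 7099 in WT GFP+ cells (log2 -2.81, SE 0.24, adjusted p = 0.000498). WT library 3 was lowest of its group in Irf1 as it was in Cd274, Pdcd1lg2, Cd80 and Cd276, but not in the other members. A link between these levels was not tested. Stat3 was lower too (log2 -0.96, SE 0.12, adjusted p = 0.00232), and Cmtm4 was higher at 0.34 (SE 0.07, adjusted p = 0.0109). Cmtm6 (-0.13, adjusted p = 0.233), Jak1, Jak2, Ifngr1 and Ifngr2 were not called. In unsorted tumours, where 29.9% of all genes were called, 2 of the 8 were lower and 1 higher as well: Irf1 at -2.40, Stat3 at -0.55 and Cmtm4 at 0.67, while Cmtm6 was at -0.11 (adjusted p = 0.379).

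Irf1 differed from most of the list in its place between the sorted fractions. It averaged 11322 ± 3664 in WT GFP+ and 13795 ± 4374 in WT GFP- cells, a log2 difference of -0.29 (adjusted p = 0.46), while 6 of the 8 genes were lower in GFP+ cells (42.7% of all genes were), from Ifngr2 at -3.68 and Ifngr1 at -3.58 to Stat3 at -0.80. Cmtm6 was at -2.10 and Cmtm4 at 1.69 in that comparison. Against culture, Irf1 was at 0.20 in Pfp/Rag2-/- GFP+ cells (adjusted p = 0.0291) and at 3.01 in WT GFP+ cells (adjusted p = 6.57e-06), and 3 of the 8 were higher and 2 lower in Pfp/Rag2-/- GFP+ cells, 3 higher and 3 lower in WT GFP+ cells, where 72.2% of all genes were called for Pfp/Rag2-/- and 65.6% for WT GFP+ cells. The outermost were Ifngr1 (0.76), Jak2 (0.65), Jak1 (-0.81) and Cmtm4 (-0.65) in Pfp/Rag2-/- cells, and Irf1, Jak2 (0.99), Jak1 (-0.76) and Cmtm4 (-0.999) in WT cells. Against unsorted cells, Irf1 was at 0.12 in Pfp/Rag2-/- (adjusted p = 0.262) and at 0.53 in WT GFP+ cells (adjusted p = 0.175). Its mean in WT unsorted cells, 7556 ± 525, lay below those of both WT sorted fractions, and the reason was not tested.

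Of 18 further checkpoint and costimulatory ligands and partners, 11 could be tested between GFP+ cells of the hosts, and 1 was higher and 2 lower, where 15.0% of all genes were higher and 15.3% lower. Tnfsf18, the ligand of GITR, was higher in Pfp/Rag2-/- (39.1 ± 4.16) than in WT GFP+ cells (16.6 ± 3.19), at log2 1.20 (SE 0.24, adjusted p = 0.0116). Tnfrsf14, the HVEM receptor that binds BTLA, was at 31.2 ± 13.6 in Pfp/Rag2-/- and 186.4 ± 11.3 in WT GFP+ cells (log2 -2.65, SE 0.35, adjusted p = 0.00253). Lgals3, galectin-3, was also lower (log2 -1.04, SE 0.17, adjusted p = 0.00487). In unsorted tumours 4 of 11 were lower (Tnfrsf14 at -2.43, Cd40 at -2.20, Cd48 at -1.88 and Icam1 at -1.39) and 0 were higher, where 15.1% of all genes were lower and 14.8% higher. Between the WT fractions 12 of 14 tested were lower in GFP+ cells, where 42.7% of all genes were, with Tnfsf8 at -6.82 and Cd40 at -6.71 lowest. Fgl1, a ligand of LAG-3, was higher there (26.5 ± 7.90 in WT GFP+ and 0.877 ± 1.52 in WT GFP- cells, log2 4.12, adjusted p = 0.000858). Fgl1 reached the filter only through the GFP+ libraries, and Tnfsf4 and Cd70 only through the GFP- libraries. Their signs were therefore set by the filter. Against culture, 3 of 9 tested were higher and 2 lower in Pfp/Rag2-/- GFP+ cells, where 35.1% of all genes were higher and 37.1% lower, with Cd40 at 2.72 and Tnfsf18 at 2.64 highest and Lgals3 at -0.78 and Fgl1 at -1.53 lowest. In WT GFP+ cells 6 of 10 were higher and 1 lower, where 30.3% of all genes were higher and 35.3% lower, with Fgl1 at -0.75 lowest and, next to Cd48, which had no read in culture, Icosl, the ligand of ICOS, at 2.81 highest. Against culture, Cd40 and Tnfsf18 in both hosts and Cd48 in WT hosts reached the filter only through the GFP+ libraries, which set their signs.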

How the data were processed

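RNA of 18 libraries (6 groups of 3) was sequenced on a NextSeq 500 from directional poly(A) libraries, per the labels' protocols. STAR 2.5.2b, DESeq2 and the genome build GRCm38 are listed in the submitters' processing notes. The sources used here do not state the counting tool, its strand setting or the annotation release. The deposited signal values are normalized counts per gene, made by the authors as read counts divided by 1 size factor per library. Multiplying back gave whole reads for 100% of values (tolerance 0.05), 19172814 to 21141662 reads per library over 48349 named genes.

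From these values, log2(normalized count + 1) was fitted with limma 3.58.1 (trend) in R 4.3.3 on the libraries compared, for genes with 10 or more normalized counts in at least 3 of them, with Benjamini-Hochberg adjustment over all genes tested and a threshold of 0.05. Quasi-likelihood tests of the recovered reads in edgeR 4.0.16, DESeq2 1.42.0 on the same reads, and other pseudocounts, filters, scalings, blocks and omitted libraries, were the alternatives. The fits were tested on simulated data. Comparisons that share a group share its libraries. In the host comparison of GFP+ cells, libraries with the same number deviated together for numbers 1 and 2 (r = 0.616 and 0.483) and less so for number 3 (0.102). Pfp/Rag2-/- library 3 deviated more with WT library 2 (0.443). A fit with the number as a block is given there where it changed a call. Groups follow the sample labels. The members and all gene and marker lists were chosen with earlier results of these data known, so their counts are descriptions. From each list, up to the 2 highest and 2 lowest called genes in a comparison were named, with Sirpa, Cd200r1, Havcr2, Pdcd1, Irf1 and Cmtm6. Marker percentages are over markers with at least 50 normalized counts in GFP- cells and at most 10% of that in culture. Like genes were ranked among 12311 genes with a mean of at least 100 in their highest group. Some genes and a motif are not reported here, and the list counts leave them out.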

Additional observations from a re-analysis of the deposited data

How the results depend on the processing

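The 37 called differences of members were recomputed under 628 alternatives. Direction and call were kept in 604, the call was lost in 24 and no sign turned. Of 681 alternatives for the 36 members' differences that missed the threshold, 16 passed it and 34 had the other sign, and DESeq2 gave no adjusted p in 3 cases. Scaling reads to equal library totals and omitting libraries from the Cd86 bounds were chosen after seeing the data. The cause of the changes below was not tested, and depth limits Pdcd1lg2 and Cd80, which had 0 to 3 reads in some Pfp/Rag2-/- GFP+ libraries.

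In GFP+ cells between hosts, 4497 genes were called, but 2971 with all 18 libraries in 1 fit and 2340 without both libraries numbered 1, and the member count of 2 became 1 with no filter, with TMM factors and with edgeR. In unsorted cells the member count of 4 became 2 with all 18 libraries in 1 fit. Between WT GFP+ and unsorted cells 2559 genes became 1619 with the filter at 50 and 4430 with all 18 libraries, and between Pfp/Rag2-/- GFP+ and unsorted cells 4625 became 2686 with all 18. The interaction's 151 genes became 61 with no filter, 298 with the filter at 50, 270 with quantile normalization, 34 with all 18 libraries, 70 with edgeR, 1216 with DESeq2 and 0 without both libraries numbered 1.

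Leaving out 1 library at a time gave 2522 to 5532 genes and 1 to 2 members in GFP+ cells between hosts, and 2280 to 6142 genes in unsorted cells. It gave 356 to 3323 genes and 1 to 6 members between WT GFP+ and unsorted cells, and 2928 to 4764 genes and 2 to 4 members between Pfp/Rag2-/- GFP+ and unsorted cells. It gave 6 to 8 members for Pfp/Rag2-/- GFP+ over cultured cells, 7 to 8 for WT GFP+ over cultured cells, and 0 to 1105 genes for the interaction.

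Differences that took the other sign had all missed the threshold. In GFP+ cells between hosts these were Cd86 with edgeR (0.39) and DESeq2 (0.40), Cd200 (-0.057) and Tnfsf9 (-0.069) with quantile normalization, and Tnfsf9 without both libraries numbered 1 (-0.15). Omitting 1 library there gave -1.74 to 0.53 for Cd86, -0.42 to 0.61 for Vsir, -0.0087 to 0.19 for Cd200 and -0.22 to 0.25 for Tnfsf9. Between WT GFP+ and unsorted cells they were Cd80 with quantile normalization (0.041), edgeR (0.37) and DESeq2 (0.38) and Cd276 with TMM factors (0.019), with 1-library ranges of -1.81 to 0.0072 for Cd80 and -0.19 to 0.012 for Cd276. Between Pfp/Rag2-/- GFP+ and unsorted cells it was Cd86 with edgeR (0.75), with ranges of -0.31 to 0.76 for Cd274, -1.93 to 0.34 for Cd86 and -0.15 to 0.33 for Tnfsf9. In the interaction they were Lgals9 with quantile normalization (0.0013) and equal library totals (0.010) and Cd47 without both libraries numbered 1 (-0.037), with ranges of -0.60 to 2.02 for Cd80, -0.15 to 0.14 for Lgals9 and -0.013 to 0.062 for Cd47.

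With the replicate number as a block, 4588 genes and 3 members were called in GFP+ cells between hosts, the added member being Pdcd1lg2. Between WT GFP+ and WT GFP- cells, deviations of same-numbered libraries had r = 0.212, 0.0679 and 0.320 for numbers 1, 2 and 3. Each was above the r of that GFP+ library with the other GFP- libraries. The main fit there was unpaired, and the block gave 12242 genes and 10 members. In the remaining comparisons of 2 groups, same-numbered libraries did not deviate together throughout. The block gave 3551 genes and 4 members in unsorted cells between hosts, 1864 and 3 for WT GFP+ over unsorted, and 3820 and 2 for Pfp/Rag2-/- GFP+ over unsorted. It gave 10402 and 8 for Pfp/Rag2-/- GFP+ and 9107 and 8 for WT GFP+ over cultured cells, and 133 and 0 for the interaction.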
